A study of Rattus norvegicus with 12 samples.

Results

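Tmem14a, Rusc2, Egfr, Ptgis, Acbd6 and Ctsl stood at or near the top of the antibiotic response of rat liver when ranked by p. Their signals were followed here in every animal of the series. The genes were listed from an earlier analysis of these data, by the difference between antibiotic-treated and control livers. The array held 9 probe sets assigned to these 6 symbols alone, out of 31042 probe sets without the array's controls and 14217 genes with a probe set of 1 symbol. All 9 passed the filter on low signals, a mean signal of at least 19.67 over the 12 arrays, which left 9300 genes. Egfr had 3 probe sets, Ctsl 2 and each of the other genes 1.

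Liver RNA was hybridised to 1-colour Affymetrix arrays, 1 array per animal. The antibiotic experiment set 3 Han Wistar rats that drank a solution of streptomycin and penicillin for 8 days until necropsy (animals 13, 14 and 15) against 3 Han Wistar control rats given no antibiotic (animals 1, 2 and 3). The other experiment set 3 germ-free Sprague Dawley rats, which carry no microbes (animals 1, 3 and 4), against 3 Sprague Dawley rats that were not germ-free, called conventional below (animals 6, 7 and 8). Strain and experiment cannot be told apart, and the labels give no age, sex, diet or hour of collection for any group. The labels do not say how animals were housed, so effects of shared housing are not accounted for. P-values of the fit over all genes rest on the spread between animals within groups, taken over all groups together.

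The genes belong to unrelated systems. Egfr encodes the epidermal growth factor receptor, a receptor tyrosine kinase that is abundant on hepatocytes and takes part in liver regeneration. Ptgis encodes prostacyclin synthase, a cytochrome P450 enzyme that turns prostaglandin H2 into the vasodilator prostacyclin. Ctsl encodes cathepsin L, a cysteine protease of the lysosome. Acbd6 encodes an acyl-CoA binding protein that in human cells assists protein N-myristoylation. Rusc2 encodes a RUN and SH3 domain protein that binds Rab1 in human cells, and Tmem14a a small membrane protein linked to mitochondrial integrity in human cells.

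Within each group, arrays correlated across genes with r between 0.977 and 0.987. All 9 hepatocyte, 10 endothelial, 9 macrophage, 12 stellate and 3 red cell markers on the array passed the signal filter. Fewer passed among bile duct (3 of 5), lymphocyte (3 of 8) and neutrophil markers (2 of 5). Hepatocyte markers had summed signals of 50070 to 61020 in antibiotic-treated and 38590 to 45730 in control livers. Their sums were 64120 to 71400 in germ-free and 57560 to 62710 in conventional livers. The 3' to 5' ratio of the actin control, a sign of RNA degradation, averaged 2.73 ± 0.131 in antibiotic-treated and 2.55 ± 0.123 in control livers (SD, n = 3 each). It averaged 4.39 ± 0.762 in germ-free livers, against 5.37 ± 0.839 in conventional livers, and an exact permutation test gave a two-sided p of 0.2 for each difference. With 3 animals against 3 it cannot go below 0.1, so it does not show that RNA quality was alike. The GAPDH ratio gave exact p = 0.5 with antibiotics and 0.6 in the germ-free experiment. The actin ratio was higher in every Sprague Dawley array (3.62 to 6.17) than in every Han Wistar array (2.47 to 2.87). Group levels set side by side across the experiments thus come from arrays that differ in this ratio. Signals below are linear intensities as deposited, and log2 changes are on the log2(signal + 16) scale, which understates the change of dim probe sets. A ± after a signal is the SD over 3 animals, and after a log2 change the SE. Levels of different probe sets cannot be compared. In bulk liver, fewer cells of a type and less RNA per cell cannot be told apart.

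The start regions of Rusc2, Egfr and Acbd6 are shown because these genes moved one way in antibiotic-treated livers and the other way in germ-free livers. RefSeq's promoter table (GRCr8 assembly) held 5 of the 6 genes, without Ptgis. The lines give the 250 bases before the annotated start, 5' to 3' on the plus strand, for Rusc2 at chr5:62449630-62449879, for Egfr at chr14:95378376-95378625 and for Acbd6 at chr13:70276827-70277076. Capitals mark matches to the letters searched on both strands: GGGCGG for the GC box, then CCAAT bound by factor NF-Y, then TATAAA bound by the general transcription machinery, then CACGTG for the E-box and finally TGACG for the core of cyclic AMP response elements. Letters CCAAT stood in 34.0%, TATAAA in 12.9% and CACGTG in 5.59% of the promoter windows named below.
Rusc2: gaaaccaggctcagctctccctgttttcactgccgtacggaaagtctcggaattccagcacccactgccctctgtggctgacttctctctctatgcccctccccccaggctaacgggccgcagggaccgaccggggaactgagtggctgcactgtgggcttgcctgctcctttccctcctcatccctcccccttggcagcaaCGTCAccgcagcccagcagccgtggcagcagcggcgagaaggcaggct
Egfr: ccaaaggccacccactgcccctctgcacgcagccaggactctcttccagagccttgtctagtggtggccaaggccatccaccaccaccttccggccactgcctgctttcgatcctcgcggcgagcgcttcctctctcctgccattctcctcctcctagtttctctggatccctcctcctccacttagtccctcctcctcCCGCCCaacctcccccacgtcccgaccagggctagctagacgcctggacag
Acbd6: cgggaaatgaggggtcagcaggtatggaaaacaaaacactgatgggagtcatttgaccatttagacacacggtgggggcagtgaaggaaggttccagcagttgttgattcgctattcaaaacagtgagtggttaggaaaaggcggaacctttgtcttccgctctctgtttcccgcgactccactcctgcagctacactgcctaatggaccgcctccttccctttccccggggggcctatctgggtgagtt
Rusc2 held 1 TGACG match on the minus strand, at position -48, and Egfr 1 GC box on the minus strand, at -51, counted from the annotated start. These letters stood in 18.2% and 30.5% of 33469 rat promoter windows of the same length. Acbd6 and Tmem14a, whose window is at chr9:31136761-31137010, held no match to any of the 5 motifs, which says only that these letters are not in this window. Ctsl, whose window at chr17:769854-770103 had 66.8% G and C against a median of 51.2%, held 6 matches: GC boxes at -110, -81 and -75, CCAAT at -90 and TGACG sites at -137 and -86, the last of which shares its T with the CCAAT.

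The genes were chosen by their difference between antibiotic-treated and control livers, so the values of this comparison are a description with no test. Tmem14a, Rusc2 and Egfr were lower in antibiotic-treated livers, and Ptgis, Acbd6 and Ctsl were higher. The groups did not overlap for any of the 6, as for 18.3% of all genes. The fit over all genes (limma, Benjamini-Hochberg, adjusted p under 0.05) called 2 of 9300 genes, 0.0215%, which were Tmem14a and Rusc2, and nothing is read from this since the same values chose them. Fitted to the 6 Han Wistar arrays alone it called 0.0323%, without Rusc2, and by probe set over all arrays 0.0193%. Ranked by p, the 6 genes held places 1 to 4, 9 and 10. Places 5 to 8 held other genes, described below, and place 11 held Abca3. By size of log2 change, Tmem14a held place 4, Ptgis 15, Rusc2 28, Egfr 29, Acbd6 88 and Ctsl 324 of 9300.

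Tmem14a had signals of 21.2, 1.9 and 2.9 in antibiotic animals 13, 14 and 15, against 93.4, 88.3 and 79.9 in control animals 1, 2 and 3. In germ-free animals 1, 3 and 4 it had 7.5, 16.7 and 2.8, against 5.2, 1.5 and 3.0 in conventional animals 6, 7 and 8. Only the 3 Han Wistar controls were clearly above the filter value of 19.67, with antibiotic animal 13 just over it. The mean was 8.67 ± 10.9 in antibiotic-treated livers, carried mostly by animal 13, against 87.2 ± 6.82 in controls (SD, n = 3 each). No fold is given, since signals this dim are not known to lie above background, and the log2 change of -2.15 ± 0.26 (SE) was -3.80 with an offset of 1 and -1.07 with an offset of 64. Its size thus depends on the offset.

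Rusc2 had signals of 35.2, 27.0 and 35.9 in antibiotic-treated animals, against 81.8, 71.7 and 83.6 in controls. In germ-free livers it had 102.1, 97.2 and 74.5, against 35.3, 43.1 and 37.2 in conventional livers. Germ-free and control animals formed the high group and their ranges overlapped, and antibiotic-treated and conventional animals formed the low group with overlapping ranges. The log2 change with antibiotics was -0.97 ± 0.14 (SE; -1.26 with an offset of 1 and -0.57 with 64).

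Egfr, read by its brightest probe set (1370830_at), had 425.5, 644.0 and 490.0 in antibiotic-treated animals, against 951.6, 1015 and 1040 in controls. In germ-free livers it had 1756, 1450 and 1395, against 822.6, 1071 and 1141 in conventional livers. Germ-free livers held the highest and antibiotic-treated livers the lowest level, and conventional and control livers overlapped between them. The log2 change with antibiotics was -0.95 ± 0.15 (SE), a mean 0.519 times that of controls.

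Ptgis had 40.0, 46.8 and 36.6 in antibiotic-treated animals, against 18.6, 7.9 and 3.7 in controls. In germ-free livers it had 95.4, 72.7 and 66.5, against 168.7, 128.1 and 164.7 in conventional livers. All 4 groups stood apart, in the order conventional, germ-free, antibiotic, control, and all 3 controls lay under the filter value. The log2 change with antibiotics was 1.17 ± 0.19 (SE; 2.16 with an offset of 1 and 0.51 with 64).

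Acbd6 had 208.7, 182.2 and 203.9 in antibiotic-treated animals, against 126.3, 104.2 and 122.1 in controls. In germ-free livers it had 113.0, 84.6 and 75.3, against 217.2, 208.5 and 217.5 in conventional livers. Antibiotic-treated and conventional animals overlapped as the high pair, and control and germ-free animals as the low pair, which is the reverse of Rusc2. The log2 change with antibiotics was 0.68 ± 0.13 (SE).

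Ctsl, read by its brightest probe set (1370244_at), had 4930, 4442 and 4302 in antibiotic-treated animals, against 3177, 3202 and 3491 in controls. In germ-free livers it had 4600, 4498 and 4340, against 4200, 4326 and 4807 in conventional livers. Han Wistar controls were the low group, and the ranges of the other groups overlapped. The log2 change with antibiotics was 0.47 ± 0.09 (SE), and 0.23 after quantile normalization.

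**Figure D1:**
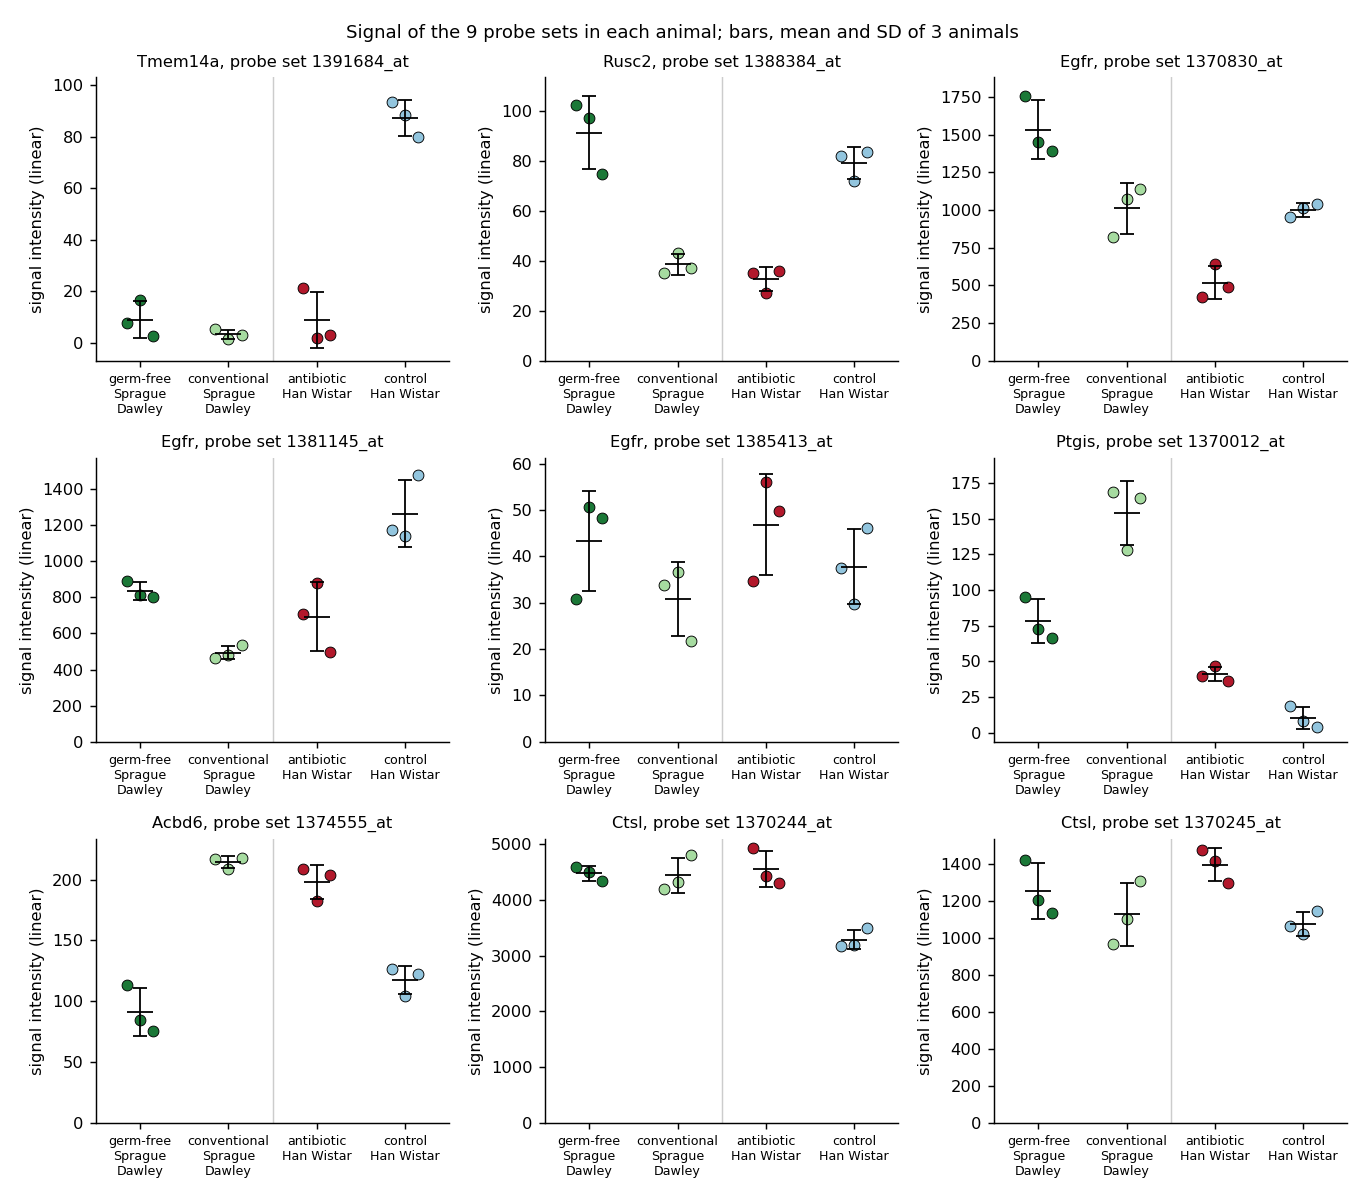
Linear signal intensity of each of the 9 probe sets (panels) in every animal (points), by group on the horizontal axis, with the mean and SD of 3 animals as bars. Tmem14a is high in Han Wistar controls only, at 79.9 to 93.4, while Rusc2 and Acbd6 each show a high and a low pair of groups in opposite order.

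Ctsl was set beside other bright genes. It ranked 109 of 9300 genes by mean signal, and 99 of the 100 brightest genes, a set chosen after its values were seen, were higher in antibiotic-treated livers, with a median log2 change of 0.34. After quantile normalization 51 of the 100 were higher, with a median of 0.00. As deposited, 3 of the 100 had a higher log2 change than Ctsl, and 1 after quantile normalization, where Ctsl stood at 0.23. In germ-free livers 90 of the 100 were higher, with a median of 0.17, and 88 of them stood above Ctsl at 0.01. Hepatocyte markers also lay higher with antibiotics, 9 of 9 with a median of 0.41. So did macrophage markers, 9 of 9 with a median of 0.51. Limma called 0 of either list, while 8 and 6 had an unadjusted p under 0.05, against 10.4% of all genes. In germ-free livers 9 of 9 hepatocyte markers were higher too (median 0.17), and 3 of 9 macrophage markers were (median -0.10). Their part in the Ctsl change was not tested.

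The members' other probe sets were compared with the brightest. In Egfr, 1381145_at had 706.3, 877.0 and 498.4 in antibiotic-treated animals, against 1174, 1141 and 1476 in controls, a log2 change of -0.88 beside -0.95 from the brightest. It had 892.2, 813.1 and 803.0 in germ-free animals, against 464.8, 479.5 and 533.6 in conventional ones. Both probe sets gave the same directions in both experiments, and with each strain's mean removed they correlated at 0.91 over the 12 arrays. They disagreed on the order of groups, since 1381145_at was highest in Han Wistar controls and 1370830_at in germ-free livers.

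The remaining Egfr probe set, 1385413_at, was dim, with 34.7, 56.0 and 49.9 in antibiotic-treated animals, against 37.5, 29.8 and 46.1 in controls. It had 30.9, 50.7 and 48.2 in germ-free animals, against 33.8, 36.7 and 21.7 in conventional ones. Its groups overlapped in both experiments, and it correlated at -0.02 and 0.07 with the other probe sets of Egfr. Its log2 change with antibiotics was 0.22, opposite in sign to theirs, and the mean of all 3 probe sets gave -0.53 in place of -0.95.

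The other Ctsl probe set, 1370245_at, had 1471, 1415 and 1298 in antibiotic-treated animals, against 1061, 1020 and 1146 in controls. It had 1421, 1205 and 1133 in germ-free animals, against 966.6, 1102 and 1308 in conventional ones. Both Ctsl probe sets were higher in every antibiotic-treated animal than in any control, with log2 changes of 0.37 and 0.47, and correlated at 0.86 with strain means removed. By 1370245_at the control and conventional ranges overlapped, so Han Wistar controls stood apart as the low group by 1370244_at only.

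The germ-free experiment shares no animal with the antibiotic one, and its values did not choose the genes, so its differences were tested. The list was nonetheless drawn up with results of both experiments known. Limma called 4 of the 6 genes here (adjusted p under 0.05), against 13.2% of all 9300 genes (6.44% rose and 6.74% fell). Of the 50 genes with the smallest antibiotic p, the 6 included, 30% were called here, and of the first 100, 22%. All 4 called members changed against their direction with antibiotics: Rusc2 and Egfr rose, and Ptgis and Acbd6 fell. Their germ-free and conventional ranges did not overlap, as for 29.9% of all genes. Tmem14a and Ctsl did not pass.

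Acbd6 fell to 91.0 ± 19.6 in germ-free livers, against 214.4 ± 5.11 in conventional livers (SD, n = 3 each), a log2 change of -1.12 ± 0.13 (SE; limma adjusted p = 0.000121). Rusc2 rose to 91.3 ± 14.7 in germ-free livers, against 38.5 ± 4.07 in conventional livers, by 0.97 ± 0.14 (limma adjusted p = 0.000459). Acbd6 was lower and Rusc2 higher in 3 of 3 germ-free animals than in any conventional one.

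Ptgis fell to 78.2 ± 15.2 in germ-free livers, against 153.8 ± 22.4 in conventional livers, a log2 change of -0.85 ± 0.19 (limma adjusted p = 0.0101, and 0.102 with an offset of 1). Egfr rose to 1534 ± 194 in germ-free livers, against 1012 ± 167 in conventional livers, by 0.60 ± 0.15 (limma adjusted p = 0.0196). Egfr no longer passed limma when germ-free animal 1 (adjusted p = 0.0649) or conventional animal 6 (0.0711) was left out, or with median centring (0.0552), which moves the median gene from 0.02 to -0.08. In the fit over all 15523 probe sets that passed the filter, where 12.2% were called, the Egfr probe set 1381145_at rose by 0.75 ± 0.17 (limma adjusted p = 0.0097), and 1385413_at did not pass (0.34 ± 0.19, adjusted p = 0.271).

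Tmem14a had a log2 value of 0.35 ± 0.26 (limma adjusted p = 0.413), with both Sprague Dawley groups under the filter value, so no fold is given for this strain. Ctsl had 0.01 ± 0.09 by 1370244_at (limma adjusted p = 0.942) and 0.16 ± 0.12 by 1370245_at (adjusted p = 0.428 over all probe sets). The sign of the Ctsl value turned with the scaling, to -0.058 after quantile normalization and -0.094 after median centring.

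The genes were chosen for a small p, which favours a small spread, and the fit shares 1 spread over both experiments. With limma fitted to the 6 Sprague Dawley arrays alone, where 9.13% of genes were called, all 4 genes again passed. The adjusted p-values were 0.0017 for Acbd6, 0.0041 for Rusc2, 0.01 for Ptgis and 0.0303 for Egfr.

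**Figure D2:**
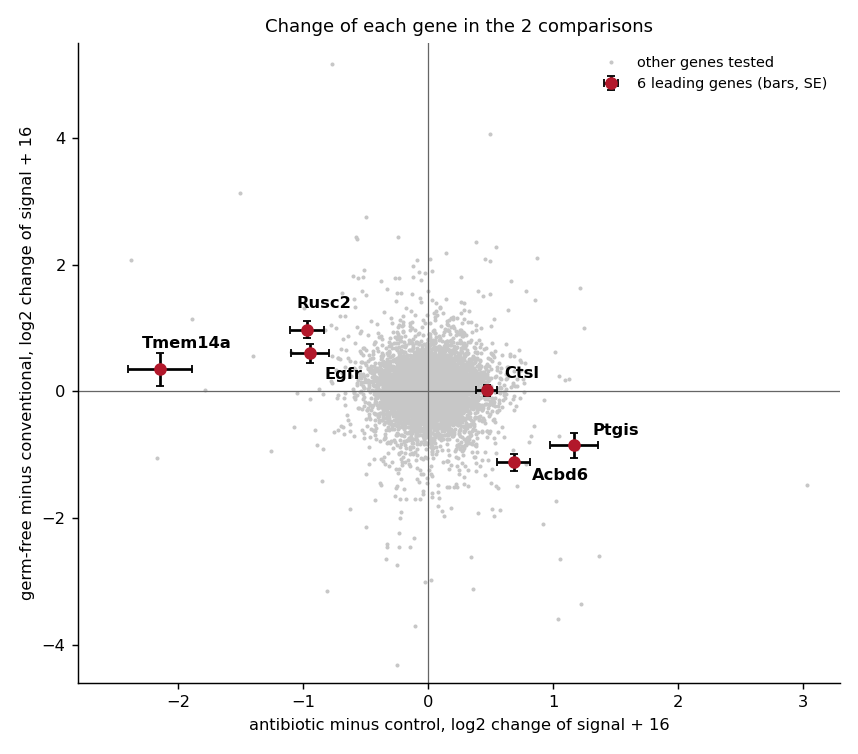
Log2 change of signal + 16 in germ-free against conventional livers (vertical axis) and in antibiotic-treated against control livers (horizontal axis) for all 9300 genes (grey) and the 6 genes (red, bars show SE). Rusc2 and Egfr lie upper left, Ptgis and Acbd6 lower right, and Ctsl close to 0 on the vertical axis.

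Rusc2, Egfr, Ptgis and Acbd6, the 4 genes called in germ-free livers, had opposite signs in the experiments, as had 49.9% of all 9300 genes, called or not. Of the 1226 genes called in germ-free livers, 610 had opposite signs. No sign is read for Tmem14a, whose Sprague Dawley signals all lay under the filter value and which passed the filter through the controls, nor for Ctsl, whose value of 0.01 turned sign in 5 of 25 alternatives. Among the 50 genes with the smallest antibiotic p, 25 had opposite signs, and 41 of the first 100 did. Genes called in germ-free livers with opposite sign made up 24% of the 50 and 16% of the 100, against 6.56% of all genes. Across all genes the log2 changes of the experiments correlated at -0.0447, and genes are not independent replicates. Genes whose groups stood apart in both experiments in opposite directions made up 3.1% of all genes, and those in the same direction 2.62%. Rusc2, Egfr, Ptgis and Acbd6 belong to the 3.1%.

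Between Ptgis and Ctsl in the antibiotic ranking lay 4 genes that are not among the 6 and are named here because of that place, after their values were seen. Abcg5, a sterol transporter of the bile canaliculus, had log2 values of 0.92 with antibiotics and -2.10 in germ-free livers. Igfbp2, a binding protein of insulin-like growth factors, had 3.03 with antibiotics and -1.48 in germ-free livers. The carotenoid-cleaving enzyme gene Bco1 had 1.05 and 0.24 in the same order, and the apolipoprotein gene Apoa2 0.50 and 0.36. In germ-free livers limma called Abcg5 (adjusted p = 3.93e-06) and Apoa2 (0.0167), while Igfbp2 (0.0779) and Bco1 (0.404) did not pass.

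Without any one animal, the log2 change with antibiotics ran from -2.49 to -1.96 for Tmem14a, -1.02 to -0.88 for Rusc2 and -1.11 to -0.82 for Egfr. It ran from 0.99 to 1.39 for Ptgis, 0.61 to 0.74 for Acbd6 and 0.41 to 0.51 for Ctsl. No left-out animal could turn a sign of these 6 changes, since antibiotic-treated and control animals did not overlap for any of them. None moved a change by over 1.5 times.

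**Figure D3:**
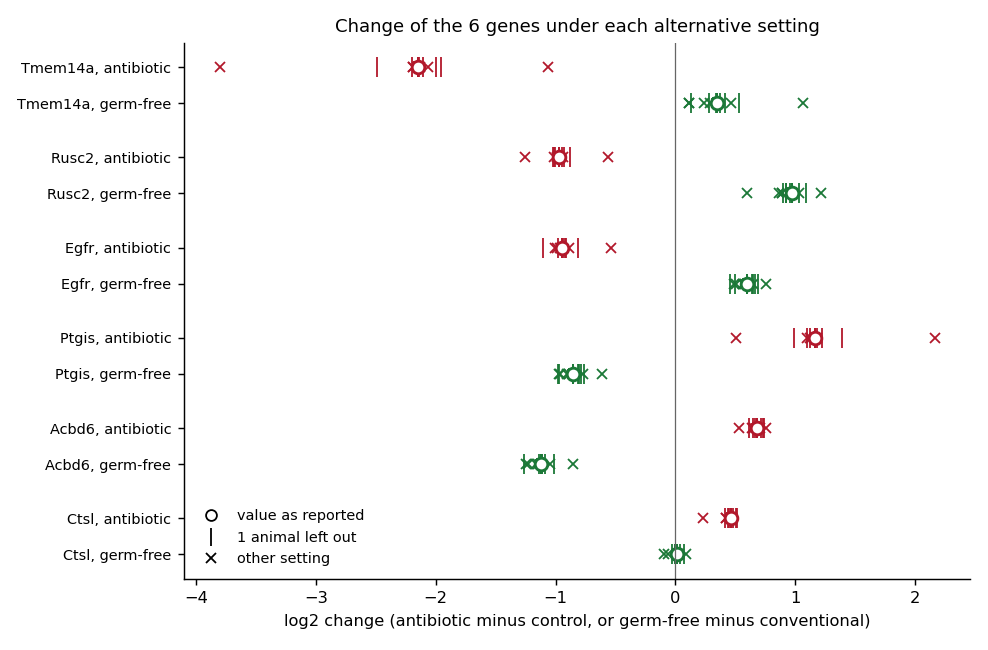
Log2 change of each gene (horizontal axis) in each comparison (rows) as reported (circles), with 1 animal left out (bars) and under the other settings (crosses). The antibiotic and germ-free values of Rusc2, Egfr, Ptgis and Acbd6 stay on opposite sides of 0 under every setting shown. With 1 animal left out this could not differ, since their groups do not overlap in either comparison. The crosses far from the circles of Tmem14a and Ptgis are the other offsets.

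The genes with the most similar pattern were sought over the 12 arrays with each strain's mean removed, as a description. These include the germ-free and conventional arrays, so the choice of a like gene partly set its germ-free change. The germ-free p-values of like genes, here and in the next paragraph, are thus no separate evidence. Rusc2 was most like Nek7, a kinase gene (r = 0.94), Blzf1 (0.94) and Ypel5 (0.92). Egfr was most like Heca (0.97), the cytochrome P450 gene Cyp2t1 (0.97) and Zfp771 (0.96), and Acbd6 most like Cyp4a3, a fatty acid hydroxylase (0.97), the chaperonin subunit gene Cct4 (0.96) and the elongation factor gene Eef1d (0.96). Cyp4a3 and Acbd6 both fell in germ-free livers (Cyp4a3 -1.23, limma adjusted p = 0.00024). Cct4 (-0.43, adjusted p = 0.00616) and Eef1d (-0.35, 0.0209) fell too, and Cyp2t1 rose as Egfr did (0.36, 0.0446). Nek7, Blzf1, Ypel5, Heca and Zfp771 did not pass.

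Ptgis was most like Cpt1a, which carries fatty acids into mitochondria (r = 0.93; -0.74 in germ-free livers, limma adjusted p = 0.00192), Ppp2r1b (0.92) and Pno1 (0.91). Ctsl was most like the cytochrome P450 gene Cyp2e1 (0.92), the ribosomal protein gene Rpl6 (0.91) and the mitochondrial gene COX1 (0.91), and Tmem14a like the lipid transporter gene Abca3 (0.89), Unc119 (0.86) and Dync1li2 (0.86). Among the 6 themselves, r was 0.87 between Rusc2 and Egfr and 0.87 between Ptgis and Acbd6, and -0.88 between Rusc2 and Ptgis. These points share animals and the choice of the genes.

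Genes that work with the 6 were read from 12 lists, with the 6 left out. Of 122 tested, limma called 0 in antibiotic-treated livers (18 had an unadjusted p under 0.05, 14.8% against 10.4% of all genes). In germ-free livers 6 rose and 14 fell, 16.4% against 13.2% of all genes.

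Of the ligands of Egfr, Egf and Tgfa were tested. Egf rose to 252.4 ± 38 in germ-free livers, against 108.1 ± 23.5 in conventional livers, by 1.12 ± 0.16 on the log2 scale (limma adjusted p = 0.00046). With antibiotics Egf had -0.04 and Tgfa -0.29 (limma adjusted p = 0.962 and 0.607). In germ-free livers Tgfa had 0.05 (limma adjusted p = 0.883). Of the other receptors of the family only Erbb3 was tested, with 0.20 with antibiotics and 0.33 in germ-free livers, and it did not pass.

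Among 11 genes that restrain or clear Egfr, 1 rose in germ-free livers and 10 did not pass (median log2 0.16). Errfi1, an inhibitor that binds the receptor's kinase domain, rose to 3904 ± 176 in germ-free livers, against 2397 ± 37.7 in conventional livers, by 0.70 ± 0.08 (limma adjusted p = 0.000151). With antibiotics it had 0.37 (limma adjusted p = 0.173), the sign opposite to Egfr. Of 14 signal transducers 0 passed in either experiment, with medians of -0.06 with antibiotics and -0.02 in germ-free livers. The smallest p belonged to Nras with antibiotics (0.58, limma adjusted p = 0.279) and to Sos1, an activator of Ras, in germ-free livers (0.36, limma adjusted p = 0.0591).

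Of 13 genes that respond to the pathway, 4 fell in germ-free livers, 0 rose and 9 did not pass (median -0.23). The cyclin gene Ccnd1 fell by 1.41 on the log2 scale (limma adjusted p = 0.000944), and the phosphatase gene Dusp6, a feedback inhibitor of ERK, fell by 1.26 (limma adjusted p = 0.0117). Ier2 fell by 0.72 and Myc by 0.85. Ier2 failed when germ-free animal 1 (adjusted p = 0.0971) or 3 (0.106), or conventional animal 6 (0.0696) or 8 (0.117), was left out of limma's fit, and Myc failed in 18 of 24 alternatives, for example with germ-free animal 3 (0.12) or conventional animal 8 (0.171) left out. With antibiotics the median was 0.22 and Ccnd1 had -0.85 (limma adjusted p = 0.187), the sign it had in germ-free livers too.

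In prostanoid synthesis and breakdown, 3 of 12 genes fell in germ-free livers, as Ptgis did, 0 rose and 9 did not pass (median -0.09). Cbr1, a carbonyl reductase, fell by 1.24 (limma adjusted p = 0.000882), the exporter gene Abcc4 by 0.82 (adjusted p = 0.00529) and the prostaglandin reductase gene Ptgr2 by 0.41 (adjusted p = 0.011, 0.144 as the mean of its probe sets and 0.0672 with the actin covariate). With antibiotics the smallest p was that of Ptges3, a cochaperone also known as a prostaglandin E synthase (0.42, limma adjusted p = 0.173). Of 2 receptors tested, Ptger3 rose by 0.64 in germ-free livers, and failed limma's test when germ-free animal 1 (adjusted p = 0.0825), 3 (0.0695) or 4 (0.0618) or conventional animal 6 (0.103) was left out. The receptor for prostacyclin itself was not analysed here.

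Ptgis is made by endothelium and muscle of vessels, so markers of endothelium were read beside it. Of 10 tested, 6 rose in germ-free livers, 0 fell and 4 did not pass (median 0.72), against the direction of Ptgis. Stab2, a scavenger receptor of sinusoids, rose by 1.17, Lyve1 by 1.09, Tek by 0.96 and Emcn by 0.90. Their summed signal was 1430 to 1998 in germ-free and 800.5 to 975.5 in conventional livers. With antibiotics 0 of 10 passed (median 0.19), and sums of 1393 to 1880 in antibiotic-treated and 1106 to 2003 in control livers overlapped. All 10 endothelial markers on the array passed the signal filter, and their part in the Ptgis values was not tested.

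Of 13 other cathepsins and inhibitors, 2 fell in germ-free livers, 0 rose and 11 did not pass (median -0.03). They were Ctsz (-0.77 ± 0.12, limma adjusted p = 0.000999) and the aspartic protease Ctsd (-0.66 ± 0.14, adjusted p = 0.00712), while Ctsl stood at 0.01. With antibiotics the median of this list was 0.07 and the smallest p was that of Ctsf (-0.36, limma adjusted p = 0.415), followed by Ctsh (0.33, adjusted p = 0.42) and Ctsa (0.25, adjusted p = 0.42), both named after their values were seen, and 9 of the 13 values were positive. Of 22 other lysosomal genes 2 rose and 2 fell in germ-free livers. Lipa, the acid lipase, fell by 0.92 (limma adjusted p = 0.000151) and the tetraspanin gene Cd63 had a log2 change of -1.87 (adjusted p = 0.000765). The hexosaminidase gene Hexa rose by 0.48 (adjusted p = 0.00311), and Cln3 by 0.53. Cln3 failed limma's test with germ-free animal 1 (adjusted p = 0.0785), 3 (0.0569) or 4 (0.0756) or conventional animal 7 (0.114) left out. With antibiotics the median of these lysosomal genes was 0.06.

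Macrophages are rich in lysosomes, and of 9 macrophage markers 1 fell in germ-free livers and 8 did not pass (median -0.10). Clec4f, the Kupffer cell lectin, fell by 0.64. It failed limma's test with germ-free animal 1 (adjusted p = 0.069) or 4 (0.0897), or conventional animal 7 (0.107) or 8 (0.0503), left out. With antibiotics the marker sum was 2372 to 3592 in antibiotic-treated and 1688 to 2591 in control livers, and C1qa, a complement subunit, had 0.68 (limma adjusted p = 0.177). All 9 macrophage markers on the array passed the signal filter, and their part in the Ctsl values was not tested.

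Of 7 other genes of acyl-CoA binding and N-myristoylation, 2 fell in germ-free livers, as Acbd6 did, 0 rose and 5 did not pass (median -0.10). Eci2, an enoyl-CoA isomerase with an acyl-CoA binding domain, fell by 0.52 (limma adjusted p = 0.00583, and 0.0572 with the actin ratio as a covariate). Dbi, the acyl-CoA binding protein itself, fell by 0.51 (adjusted p = 0.0495), which did not pass in 17 of 25 alternatives, among them the fits without germ-free animal 1 (0.153) or 3 (0.167). With antibiotics this list had a median of -0.01, with all 7 between -0.20 and 0.03. Acbd6 had 0.68, but it was chosen for its antibiotic difference, so nothing is read from this contrast.

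Tmem14c, a relative of Tmem14a that takes part in haem synthesis in mitochondria, fell to 699.1 ± 106 in germ-free livers, against 1398 ± 33.5 in conventional livers (-0.99 ± 0.13, limma adjusted p = 0.00024). It was bright in all groups, and with antibiotics it had 0.06. Tmem14a had -2.15, but it was chosen for its antibiotic difference, so nothing is read from this contrast. Of the 12 genes of this family and of mitochondrial apoptosis, the other 11 did not pass in germ-free livers, and with antibiotics the smallest p was that of Bad, a promoter of apoptosis (-0.58, limma adjusted p = 0.173). Of 13 genes of RUSC proteins and early secretory traffic, 1 rose in germ-free livers and 12 did not pass (median -0.09). This was the clathrin adaptor gene Ap1g1 (0.39 ± 0.09, limma adjusted p = 0.0143), which did not pass without germ-free animal 3 (0.0711), in the fit to the 6 arrays alone (0.07), with median centring (0.0532) or with the actin covariate (0.105).

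**Figure D4:**
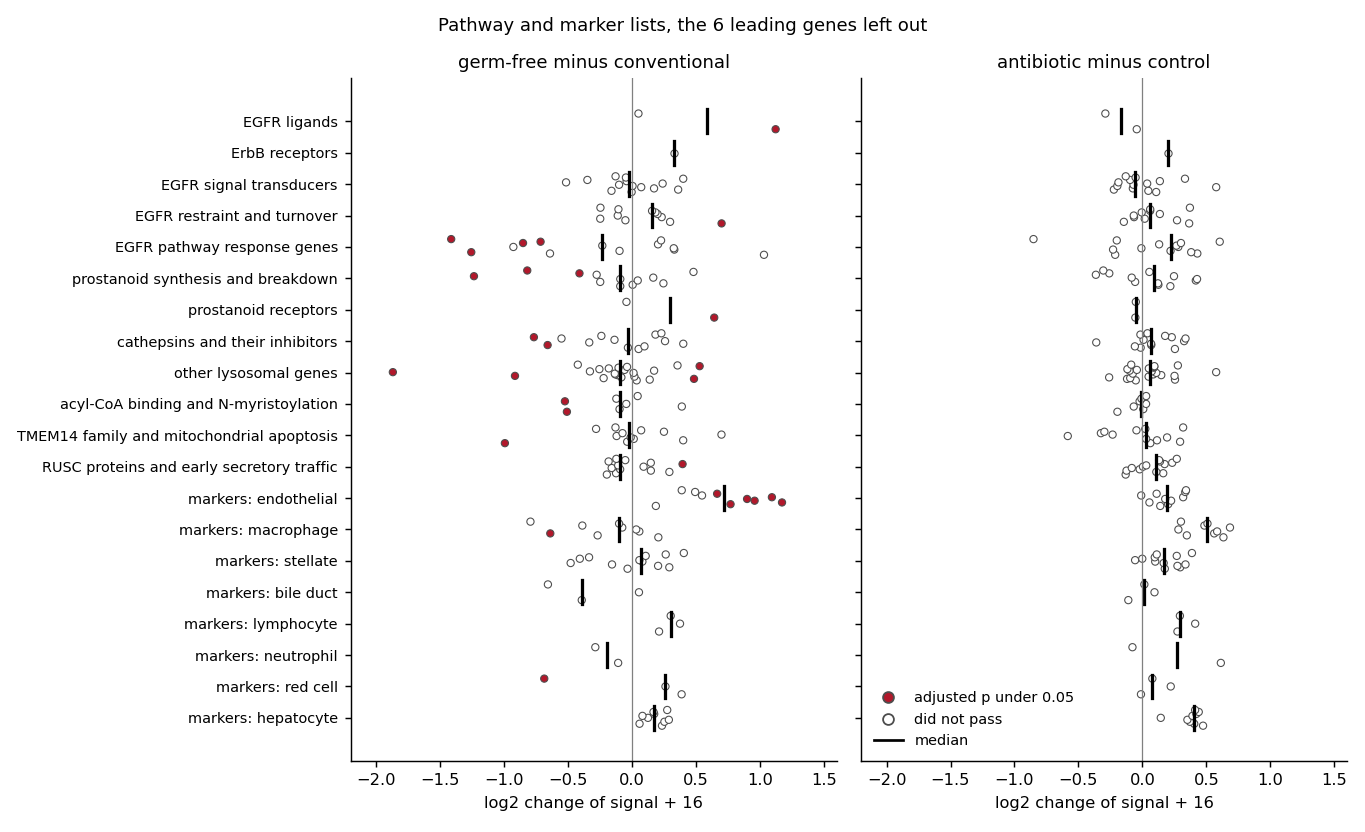
Log2 change of each tested gene (points) of the 12 pathway and 8 marker lists (rows), in germ-free against conventional livers (left) and antibiotic-treated against control livers (right), with list medians as black lines and genes past limma's adjusted threshold in red. Red points stand in the left panel only, among them 6 endothelial markers, and the macrophage and hepatocyte markers lie right of 0 in the right panel.

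Markers of other cells gave no call with antibiotics. In germ-free livers 0 of 12 stellate, 0 of 3 bile duct, 0 of 3 lymphocyte, 0 of 2 neutrophil and 0 of 9 hepatocyte markers passed limma's test, of which 2, 0, 0, 0 and 3 had an unadjusted p under 0.05 (28.1% of all genes). Of 3 red cell markers 1 fell, Slc4a1 (-0.69), which failed limma's test with germ-free animal 1 (adjusted p = 0.0536), 3 (0.122) or 4 (0.0516) or conventional animal 6 (0.11) or 7 (0.0546) left out.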

How the data were processed

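The values the authors deposited are linear signal intensities, one for each probe set on each array, computed with MAS5 per the submitters' processing notes (version not given in the sources used here), without detection calls. The trimmed mean of every array, with 2% removed at each end, lay between 100.0 and 100.1, so values were used as deposited. Per the labels' protocols, the antibiotics were streptomycin (4 mg/ml) with penicillin (2 mg/ml), and came as a stock of which 30 mL was added to 270 mL of drinking water. The labels leave unclear whether these are concentrations before or after dilution.

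Of 31099 probe sets, 57 controls were set aside. Platform annotation gave 1 symbol to 20826, several to 436 and none to 9780, and symbols were updated to GRCr8 through the gene identifier (20758) or accession (2), with 66 kept. The filter kept the 15523 probe sets whose mean signal reached the median, 19.67, and the brightest stood for each of 9300 genes. R 4.3.3 and limma 3.58.1 (lmFit, eBayes with a trend) were used on log2(signal + 16), 1 mean per group over all 12 arrays, with 8 residual and 5.84 prior degrees of freedom. Two-sided p-values were adjusted by the Benjamini-Hochberg method and read at 0.05. With 12 arrays, precision was limited (median SE of a log2 change, 0.144).

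The 6 genes and all lists were chosen with earlier results of these data known. Named were the 6 genes, the 3 genes most like each, and up to 4 called genes per list and comparison, or the one with the smallest p. Lists also held genes not analysed here, so counts refer to genes tested. The fit was checked on simulated arrays in which 200 of 9300 genes changed. The antibiotic comparison recovered 31.3% of changes of 0.5, 83.6% of 1 and 100% of 2 on the log2 scale, with 5 false calls. The germ-free comparison recovered 29.9% of changes of 0.5, 91% of 1 and 100% of 2 on the log2 scale, with 6 false calls. Simulated arrays with 0 changed genes gave 0 false calls in either comparison. Each setting was drawn a single time, with genes independent and the same spread in all groups. False calls under correlated genes or unequal spreads were thus not checked. Alternatives were other offsets, filters, scalings, priors, array weights, probe set rules, the actin ratio as a covariate and leaving out each animal.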

Additional observations from a re-analysis of the deposited data

Results flagged for a closer look

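Rusc2, Egfr, Ptgis and Acbd6 stood apart because every antibiotic-treated animal lay on one side of all controls, and every germ-free animal on the opposite side of all conventional animals. Rusc2 had a log2 change of -0.97 with antibiotics and 0.97 in germ-free livers, and Egfr of -0.95 and 0.60. Ptgis had 1.17 with antibiotics and -0.85 in germ-free livers, and Acbd6 0.68 and -1.12. The difference between the comparisons was not tested, because the genes were chosen on the antibiotic values. Groups that stood apart in opposite directions were found for 288 of 9300 genes (3.1%), and in the same direction for 244 (2.62%).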

How the results depend on the processing

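No paired analysis was possible because the groups compared share no animal numbers. The number of genes called with antibiotics was 2, and it was 1 with an offset of 1, 4 with no filter, 0 with the 75th percentile filter, 6 with a robust prior and 15 with array weights. Leaving out 1 animal gave 0 (control animal 2) to 10 (germ-free animal 1). Values over 1.5 times away also came without germ-free animal 3 (1), conventional animal 6 (6) or 7 (4), control animal 1 (5) and antibiotic animal 15 (4). In germ-free livers 1226 genes were called, 1901 when every probe set was tested and 606 with the actin ratio as a covariate, and from 654 (without germ-free animal 3) to 1236 with 1 animal left out. The germ-free calls of Acbd6 and Rusc2 held in all 25 and 24 alternatives. That of Egfr was lost in 3 of 25, with median centring (0.49) and without germ-free animal 1 or conventional animal 6 (range 0.46 to 0.69 with 1 animal left out), and that of Ptgis in 1 of 24, with an offset of 1 (-0.97). The uncalled Ctsl value turned to -0.058 with quantile normalization and -0.094 with median centring, and ran from -0.026 to 0.071 with 1 animal left out (-0.00597, -0.026 and -0.00484 without germ-free animal 1 and conventional animals 6 and 7). Signs were opposite in 5 of 6 genes, a count that includes Tmem14a, whose germ-free sign is not readable, and that varied up to 6 only with the sign of Ctsl. It was 2 of 3 genes with the 75th percentile filter, which tests fewer genes. Counts of list genes called in germ-free livers stayed within 1.5 times in 424 of 500 alternatives (8 of 25 for the acyl-CoA list). With antibiotics these counts were 0 and had little room to vary. Apart from construction (fewer genes or animals), the cause was not tested. Without detection calls, it is not known which dim signals, such as those of Tmem14a, lie above background.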
